A study of Mus musculus with 10 samples.

Results

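The voltage-gated calcium channel alpha-1 subunits are the pore-forming proteins of the calcium channels that open when a membrane depolarises. All 10 genes of the family were taken by their symbols (Cacna1a, Cacna1b, Cacna1c, Cacna1d, Cacna1e, Cacna1f, Cacna1g, Cacna1h, Cacna1i and Cacna1s), and all 10 had an entry among the 24421 gene entries counted in every pool. They were compared across 10 pools of single mouse vagal neurons in 5 groups of 2 pools. The nodose ganglion, which arises from the epibranchial placodes, was sampled from the caudal end of the fused ganglion, and the jugular ganglion, which arises from the neural crest, from the rostral end.

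In the Trpv1 selection, neurons were picked by red fluorescence from mice that carried Trpv1Cre and a tdTomato reporter at the ROSA26 locus. It comprised Trpv1-tdTomato-positive nodose neurons (30 cells in each pool), Trpv1-tdTomato-positive jugular neurons (30 in each pool) and Trpv1-tdTomato-negative nodose neurons (15 in each pool), all from the same 2 mice. In the capsaicin selection, neurons of wildtype mice were picked after a calcium response to capsaicin. Nodose neurons (14 and 15 cells) had also to respond to the P2X agonist α,β-methylene-ATP, and jugular neurons (15 and 16 cells) had not to respond to it. The ages of the mice are not given in the sources used here. The reporter marks any neuron that has expressed Trpv1 at some time, including those that did so only in development. Which mouse gave which pool is not stated, so the p-values below measure the spread between pools, which may be technical. Strain, sequencing core and depth all changed with the selection, and their parts cannot be told apart.

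Total counts per pool ran from 148452506 to 167704327 under the Trpv1 selection and from 17666710 to 30810863 under the capsaicin selection, where fewer genes had a count (7889 to 10010, against 12153 to 13029). Levels are given as CPM, which here are counts divided by the size factor of the pool and scaled to one common total. A count of 3, taken as the smallest that can be told from 0, was worth 0.0116 to 0.0154 CPM in pools picked by the reporter and 0.118 to 0.176 CPM in those picked by capsaicin, and this covers counting error only. The labels held in their marker genes. Prdm12, a transcriptional regulator of neural crest-derived nociceptors, lay between 22.2 and 147 CPM in the 4 jugular pools and at no more than 0.19 CPM in the 6 nodose pools, and Trpv1 lay between 17.8 and 248 CPM in all pools but the Trpv1-tdTomato-negative ones, where it was 0.0348 and 0.0334 CPM. All 6 neuronal markers (Snap25, Tubb3, Uchl1, Prph, Nefl and Slc17a6) exceeded 3 counts in every pool. Of the 8 markers of satellite glia and Schwann cells, 4 exceeded 3 counts in every pool, and their summed level was 572 to 808 CPM in Trpv1-tdTomato-positive nodose pools, 641 to 665 in Trpv1-tdTomato-positive jugular pools, 700 to 826 in Trpv1-tdTomato-negative pools, 450 to 827 in nodose capsaicin pools and 294 to 605 in jugular capsaicin pools. These ranges overlapped between the groups of each comparison. The part of glial RNA in the levels below was not tested.

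As background, each alpha-1 subunit has 4 linked domains that form the pore and its voltage sensors, and it is the alpha-1 subunit that decides the type of current. Low-voltage-activated (T-type) channels, encoded by Cacna1g, Cacna1h and Cacna1i, open near the resting potential and shape firing. High-voltage-activated channels comprise the L-type (Cacna1s, Cacna1c, Cacna1d and Cacna1f), which couple electrical activity to gene transcription and, in muscle, to contraction, and the P/Q-type (Cacna1a), N-type (Cacna1b) and R-type (Cacna1e), which admit the calcium that triggers transmitter release. The N-type channel carries much of the calcium current of nociceptive sensory neurons and is the target of the analgesic ziconotide. High-voltage-activated subunits are joined by auxiliary α2δ and β subunits that bring them to the membrane and set their gating.

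Of the 10 genes, only Cacna1b and Cacna1c reached 10 CPM in both pools of a group, and the bases just before their annotated starts are shown because the results turn on them. The windows are the 250 bases before the RefSeq start (GRCm38.p6), written 5′ to 3′ on the gene's strand, with matches to GGGCGG or its reverse complement CCGCCC, the core of the GC box, in capitals. Such a match on either strand is held by 32.7% of the 32851 windows of the same length in the RefSeq table, whose median is 52.4% G or C and 6 CG pairs. Cacna1b has 1 window (chr2:24763153-24763402, minus strand), and of the 3 windows of Cacna1c those of the most upstream start (chr6:119196410-119196659, minus strand) and the next start (chr6:119108496-119108745, minus strand) are printed.
Cacna1b: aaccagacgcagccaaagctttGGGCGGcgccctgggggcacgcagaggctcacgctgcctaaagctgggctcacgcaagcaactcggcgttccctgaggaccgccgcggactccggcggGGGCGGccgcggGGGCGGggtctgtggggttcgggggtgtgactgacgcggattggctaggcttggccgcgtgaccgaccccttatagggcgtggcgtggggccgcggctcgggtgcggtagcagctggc
Cacna1c, most upstream start: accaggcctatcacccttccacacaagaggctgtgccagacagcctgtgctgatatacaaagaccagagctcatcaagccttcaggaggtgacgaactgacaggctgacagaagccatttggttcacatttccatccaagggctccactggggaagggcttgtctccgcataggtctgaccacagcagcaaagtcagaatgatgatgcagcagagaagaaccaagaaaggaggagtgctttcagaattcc
Cacna1c, next start: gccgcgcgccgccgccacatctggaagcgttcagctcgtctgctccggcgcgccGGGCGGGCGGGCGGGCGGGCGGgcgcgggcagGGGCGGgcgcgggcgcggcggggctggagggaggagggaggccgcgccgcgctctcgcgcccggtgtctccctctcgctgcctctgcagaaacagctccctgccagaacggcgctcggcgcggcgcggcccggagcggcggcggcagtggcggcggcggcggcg
The Cacna1b window held 3 matches, 29 CG pairs and 72.0% G or C. The most upstream Cacna1c window held none of the matches, 2 CG pairs and 51.6% G or C, whereas the next one held 6 matches that partly overlap each other, 48 CG pairs and 82.8% G or C. Counts per gene do not tell which start was used, so the windows describe the genes and not the pools.

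Cacna1b, on chromosome 2 (24603887 to 24763152, minus strand, mm10), encodes Cav2.2, the pore of the N-type channel, and was the highest member. It was at 88.2 and 50.2 CPM in the Trpv1-tdTomato-positive nodose pools, 26.4 and 6.21 CPM in the jugular ones and 23.1 and 12.3 CPM in the Trpv1-tdTomato-negative nodose pools. Among capsaicin pools it was at 0 and 161 CPM in the nodose and at 0 and 56.5 CPM in the jugular ones, that is, in each ganglion 1 pool had no count and the other had 2757 or 1355 counts. Both Trpv1-tdTomato-positive nodose pools thus lay above all 4 other pools of their selection. The share of all genes placed in this way was not counted. Against the jugular pools alone, 42.1% of genes tested did not overlap in either direction, and against the Trpv1-tdTomato-negative pools alone 40.7%. The capsaicin pools spread from 0 to 161 CPM. The place of that last pool depends on the scaling: with plain totals in place of size factors it was at 89.5 CPM, below 111 CPM in a pool of Trpv1-tdTomato-positive nodose neurons.

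Cacna1a, on chromosome 8 (84388440 to 84640246, plus strand), encodes Cav2.1, the pore of the P/Q-type channel of presynaptic terminals. It was at 3.14 and 0.181 CPM in Trpv1-tdTomato-positive nodose pools, 17.9 and 8.29 CPM in jugular ones and 0.0618 and 18.1 CPM in Trpv1-tdTomato-negative nodose pools. It did not exceed 1.52 CPM in the capsaicin selection, with 0 and 26 counts in nodose pools and 16 and 3 in jugular pools. The 2 Trpv1-tdTomato-negative pools held the lowest and the highest level of their selection. Of its exon bases, 435 are shared with an antisense gene, Gm16183, that had no entry of its own, and whether reads were counted by strand is not given in the sources used here.

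Cacna1e, on chromosome 1 (154390731 to 154884501, minus strand), encodes Cav2.3, the pore of the R-type channel. It was at 0.201 and 0.0049 CPM in Trpv1-tdTomato-positive nodose pools, 0.00431 and 0.00404 CPM in jugular ones and 7.13 and 4.85 CPM in Trpv1-tdTomato-negative nodose pools. Of the capsaicin pools, 1 nodose pool had 2446 counts, or 143 CPM, the other had none, and the jugular pools had 0 and 2 counts. More than 3 counts were thus found in 4 pools, namely the 2 Trpv1-tdTomato-negative pools, 1 Trpv1-tdTomato-positive nodose pool and 1 nodose capsaicin pool.

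Cacna1c, on chromosome 6 (118587240 to 119196418, minus strand), encodes Cav1.2, an L-type pore found in most neurons and in heart and smooth muscle. It was at 37.8 and 21.5 CPM in Trpv1-tdTomato-positive jugular pools, 6.16 and 0.598 CPM in nodose ones and 3.86 and 7.38 CPM in Trpv1-tdTomato-negative nodose pools. The jugular pools of the capsaicin selection were at 32.1 and 33.4 CPM (819 and 800 counts), and neither nodose pool had a count. All 4 jugular pools lay above all 6 nodose pools. The share of all genes that separate the pools in this way was not counted. The gene overlaps Dcp1b but shares no exon bases with it.

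**Figure D1:**
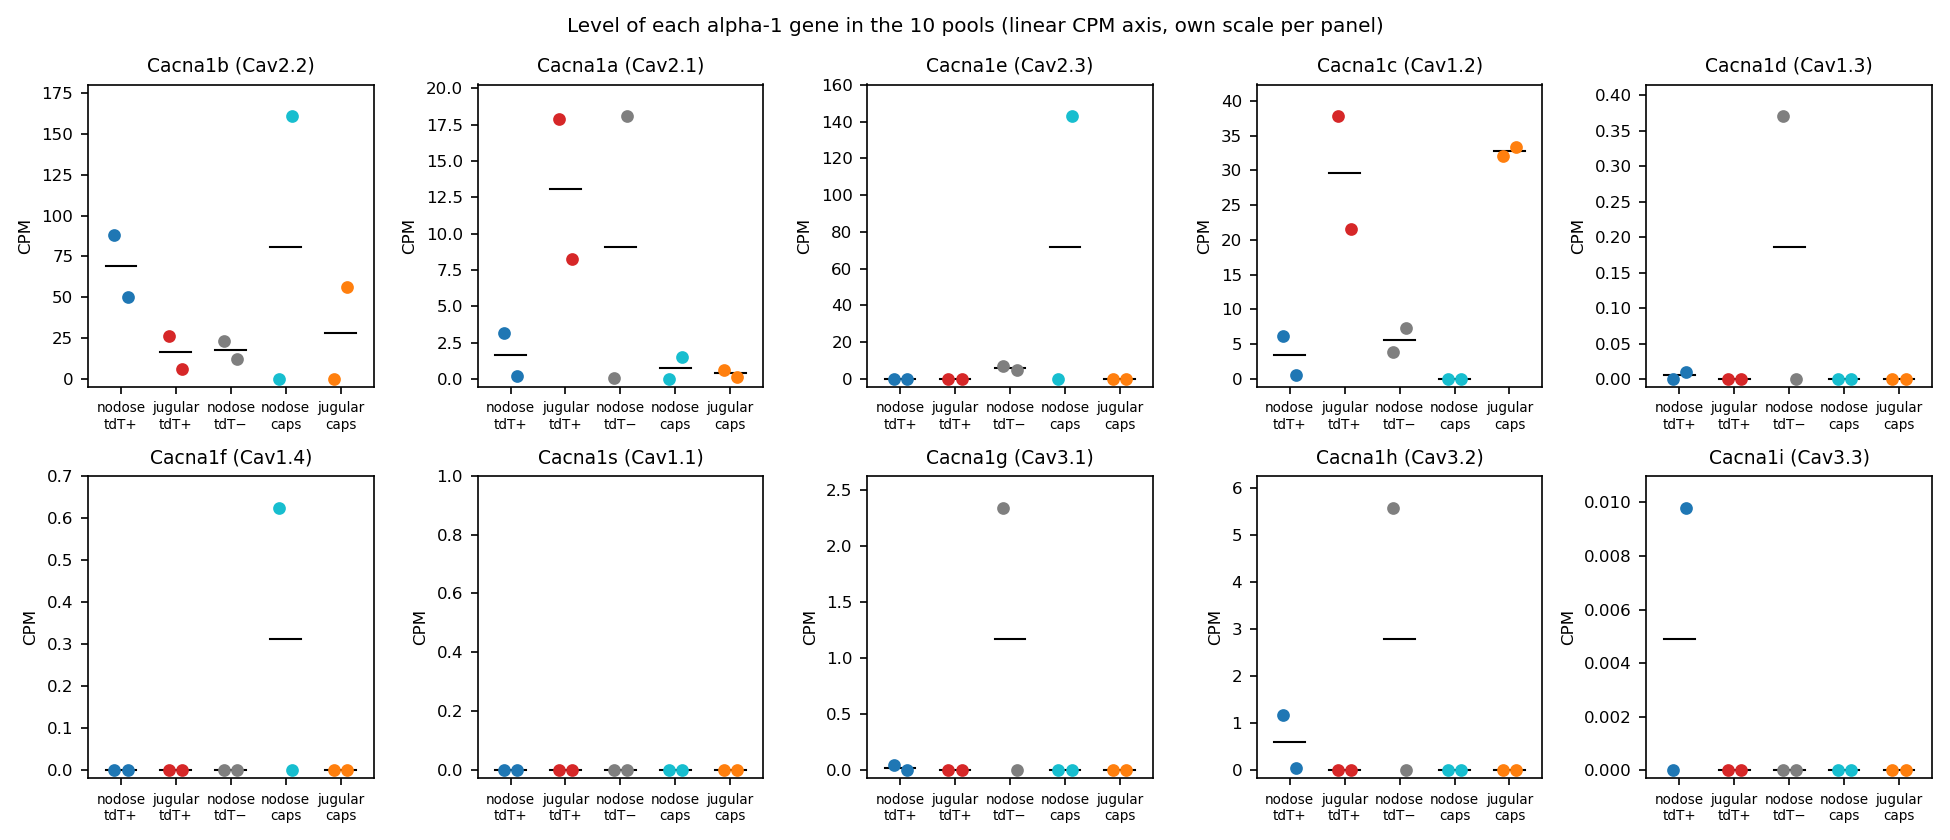
CPM of each of the 10 alpha-1 genes (linear axis, a scale of its own in each panel), with 1 point per pool and a bar at the mean of the 2 pools of each group (tdT+, Trpv1-tdTomato-positive; tdT−, Trpv1-tdTomato-negative; caps, capsaicin selection). The Cacna1c points of the 4 jugular pools lie between 21.5 and 37.8 CPM, above all nodose points, while Cacna1b and Cacna1e reach 161 and 143 CPM in the same nodose capsaicin pool and 0 in the other. The share of all genes that separate jugular from nodose pools as Cacna1c does was not counted.

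The other L-type genes were at or near 0. Cacna1d, whose Cav1.3 channels open at less depolarised potentials than Cav1.2, had 96 counts (0.371 CPM) in 1 Trpv1-tdTomato-negative pool and 2 counts in 1 Trpv1-tdTomato-positive nodose pool. Cacna1f, which encodes the retinal Cav1.4, had 15 counts (0.625 CPM) in 1 nodose capsaicin pool. Cacna1s, which encodes the skeletal muscle Cav1.1, had no count in any pool, which allows up to 0.0154 CPM in pools picked by the reporter and up to 0.176 CPM in those picked by capsaicin.

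The T-type genes were seen in nodose pools of the Trpv1 selection and in no other pool. Cacna1h, which encodes Cav3.2, the T-type channel best known in sensory neurons, was at 5.59 and 0.00417 CPM in the Trpv1-tdTomato-negative pools (1448 counts and 1 count) and at 1.18 and 0.0441 CPM in the Trpv1-tdTomato-positive nodose pools (230 and 9 counts). Cacna1g, which encodes Cav3.1, had 606 counts and 1 count in the Trpv1-tdTomato-negative pools and 9 and 0 in the Trpv1-tdTomato-positive nodose pools. The same Trpv1-tdTomato-negative pool held the largest count of Cacna1d, Cacna1g and Cacna1h. Of the glial markers, Kcnj10 (13.1 CPM, against at most 1.17 in the other pools) and Sox10 (10.2 CPM, against at most 2.24) were also highest in it, while the summed level of the 8 glial markers in its group was 700 to 826 CPM, and their part in these counts was not tested. Cacna1i, which encodes Cav3.3, had 2 counts in 1 pool. None of the 3 genes had a count in the 4 pools of the capsaicin selection, in which 1 count is worth more CPM.

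To compare members with each other, CPM were divided by the length of the exons of each gene (GENCODE M21), which was 9.94 kb for Cacna1b, 11.42 kb for Cacna1a, 21.19 kb for Cacna1c and 25.23 kb for Cacna1e. Averaged over the 5 groups, Cacna1b stood at 4.27 CPM per kb, Cacna1c at 0.674, Cacna1e at 0.616 and Cacna1a at 0.437, and the other 6 genes at no more than 0.0699. The mean of Cacna1e came almost wholly from the second nodose capsaicin pool, without which it was 0.0487 and that of Cacna1b 2.64. The spread of single pools exceeded the gaps between Cacna1c, Cacna1e and Cacna1a, whose order is therefore not resolved. In Trpv1-tdTomato-positive nodose pools Cacna1b was at 6.96 ± 2.71 CPM per kb (SD, n = 2), Cacna1c at 0.159 ± 0.185 and Cacna1a at 0.146 ± 0.184, so that Cacna1b stood apart and the others did not differ beyond their spread. In Trpv1-tdTomato-positive jugular pools Cacna1b was at 1.64 ± 1.44 CPM per kb, Cacna1c at 1.4 ± 0.546 and Cacna1a at 1.15 ± 0.592, which did not differ beyond their spread.

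The make-up of the family differed accordingly between pools. Cacna1b took 92.7% and 99.0% of the summed CPM per kb of the 10 genes in Trpv1-tdTomato-positive nodose pools, 44.3% and 26.4% in jugular ones and 64.0% and 36.8% in Trpv1-tdTomato-negative pools. Cacna1c took 29.7% and 42.9% in Trpv1-tdTomato-positive jugular pools, and between 0.554% and 10.4% in the 4 nodose pools of that selection. Among capsaicin pools, Cacna1b took 73.6% of 1 nodose pool and 78.2% of 1 jugular pool, whereas Cacna1c took 96.5% of the other jugular pool. The remaining nodose capsaicin pool had 15 counts over the whole family, all of them from Cacna1f, although all 6 neuronal markers were present in it. With the length of the longest transcript in place of all exons, Cacna1c became the highest member in the first Trpv1-tdTomato-positive jugular pool (36.7%, against 34.6% for Cacna1b).

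**Figure D2:**
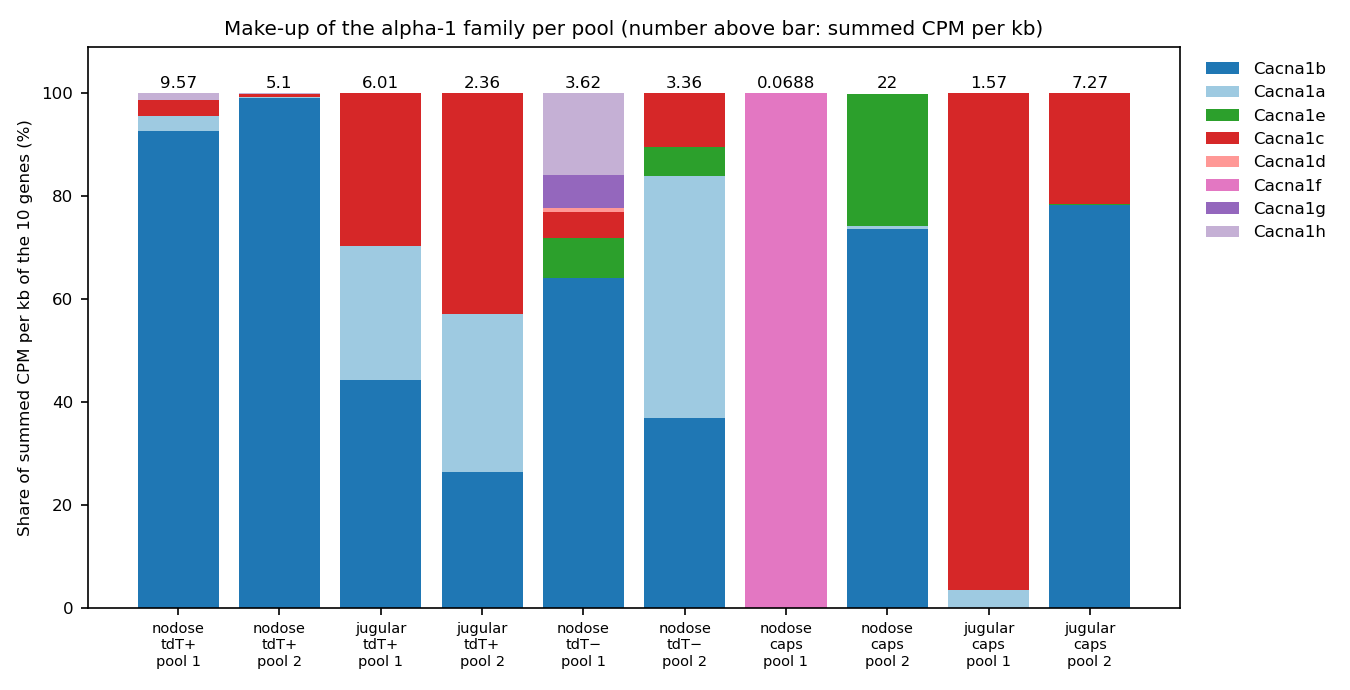
Share (%) of each gene in the summed CPM per kb of exon of the 10 alpha-1 genes, with 1 stacked bar per pool and the sum in CPM per kb above it; Cacna1i and Cacna1s, which take no visible share, are left out of the legend. Cacna1b (dark blue) takes 92.7% and 99.0% in Trpv1-tdTomato-positive nodose pools and 26.4% to 44.3% in the jugular ones, and the first nodose capsaicin bar rests on 15 counts in all.

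The first comparison asked how nodose and jugular neurons with the Trpv1 reporter differ in their calcium channels. Mean Cacna1b was 4.24 times higher in nodose pools (69.2 ± 26.9 against 16.3 ± 14.3 CPM, SD, n = 2 each), mean Cacna1c was 8.78 times higher in jugular pools (29.7 ± 11.6 against 3.38 ± 3.93 CPM), and mean Cacna1a was 7.86 times higher in jugular pools (13.1 ± 6.76 against 1.66 ± 2.1 CPM). None of these differences passed the test. In edgeR's quasi-likelihood test with Benjamini-Hochberg adjustment over 10990 genes, the log2 fold change of nodose over jugular was 2.08 ± 1.16 (SE, adjusted p = 0.64) for Cacna1b, -3.15 ± 1.97 (adjusted p = 0.714) for Cacna1c and -2.99 ± 2.36 (adjusted p = 0.8) for Cacna1a. Their sizes depended on single pools: Cacna1a was -6.17 and Cacna1c -5.63 without the first nodose pool, and Cacna1b was 3.44 without the first jugular pool. To be called, a gene needed an adjusted p no higher than 0.1, a change of 2-fold or more and 10 CPM in both pools of a group, and the background was 0.318% of the genes tested (3.46% with DESeq2). With 0 of 3 members tested by edgeR called, 0 of 5 tested by DESeq2, and 0 of 3 at an unadjusted p under 0.05 in edgeR, these differences did not exceed the replicate spread by this test. The 2 pools of each group did not overlap for any of the 3 members, which was also true of 42.1% of all genes tested. The other 7 members were too low to be tested by edgeR. DESeq2 gave Cacna1h, with 230 and 9 counts in nodose pools and none in jugular ones, a log2 change of 9.66 (adjusted p = 0.00946), which was not called because no group reached 10 CPM. An exact permutation test of 2 against 2 pools cannot give a p below 0.33.

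The second comparison put the same question to neurons that had responded to capsaicin. Cacna1c was at 32.7 ± 0.861 CPM (SD, n = 2) in jugular pools and had no count in nodose pools. With the floor of 3 counts in each nodose pool (0.15 CPM on average), the ratio would be at least 217-fold. That bound covers counting error only and not the spread between pools. Cacna1b, for example, had 0 counts in 1 nodose capsaicin pool and 2757 in the other, and the former had 15 counts over the whole family. In the Trpv1 selection the ratio of means for Cacna1c was 8.78. Cacna1c was the only member with an unadjusted p under 0.05 in edgeR's quasi-likelihood test, and its adjusted p over 8181 genes was 0.352. edgeR called none of the genes tested (0.0%), although 1150 had an unadjusted p under 0.05. DESeq2 called Cacna1c (log2 fold change -12.06 ± 3.09, adjusted p = 0.00134), at a background of 6.83% of the genes it tested, and no other member. The fitted fold change rests on pools without counts and is not a measure of size. Cacna1c did not overlap between the groups, as did not 42.1% of all genes tested, and the groups overlapped for Cacna1a and Cacna1b.

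For Cacna1b the mean was 2.86 times higher in nodose capsaicin pools (80.7 ± 114 against 28.2 ± 39.9 CPM), but each SD exceeded its mean, and the log2 fold change in edgeR was 0.93 ± 3.95 (adjusted p = 1). Its direction turned when a pool was left out: without the second nodose pool it was -12.54. Cacna1a had a log2 fold change of 0.52 ± 2.23 (adjusted p = 1), which became -6.26 without the same pool. Neither gene therefore kept a direction in this selection. Cacna1e, at 143 CPM in that pool, did not pass the filter on low counts and was not tested by edgeR. DESeq2 gave it an adjusted p of 0.017 on a log2 fold change of 10.32, which was not called because the other nodose pool had no count.

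Both selections together tested the ganglion over 8 pools with the selection as a covariate. The log2 fold change of nodose over jugular for Cacna1c was -7.3 ± 3.52 (edgeR's quasi-likelihood test, adjusted p = 0.653), and it was not called. It stayed between -10.85 and -4.61 when each pool was left out in turn, and its size rests in part on nodose capsaicin pools without counts. DESeq2 called it (-7.11 ± 1.81, adjusted p = 0.00101), at a background of 8.38% against 0.825% for edgeR. Of the 4 members tested, edgeR called none. Cacna1b was 1.54 ± 2.14 (adjusted p = 0.985) and Cacna1a -1.2 ± 2.54 (adjusted p = 1), and the 7.29 ± 3.55 of Cacna1e (adjusted p = 0.658) fell to 2.73 without the nodose capsaicin pool at 143 CPM.

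Whether the ganglion difference itself differed between the selections was tested as an interaction. It was -11.57 ± 4.54 for Cacna1c on the log2 scale (edgeR's quasi-likelihood test, adjusted p = 0.478, unadjusted p under 0.05), in the direction of a larger jugular excess in the capsaicin selection. The jugular means were close, at 29.7 CPM in the Trpv1 and 32.7 CPM in the capsaicin selection. The fitted value and the DESeq2 call rest on the nodose capsaicin pools, which had no count at lower depth, and do not measure the size of a difference. edgeR called no gene (0.0% of 11959, with 1233 at an unadjusted p under 0.05), and DESeq2 called Cacna1c (-8.69, adjusted p = 0.0121) at a background of 8.28%. For Cacna1b the interaction was -1.14 ± 4.3 and for Cacna1a 3.46 ± 4.53.

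**Figure D3:**
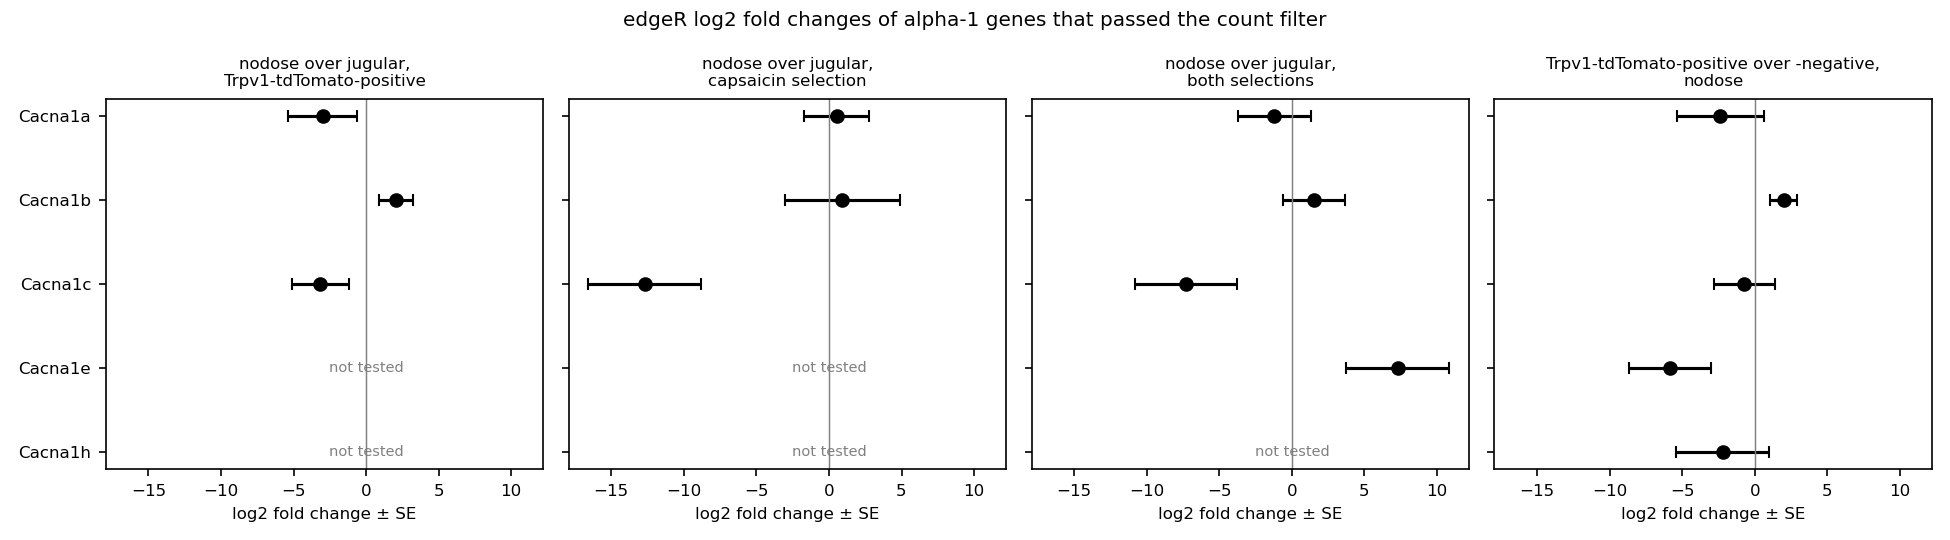
Log2 fold change (edgeR, ± SE from the quasi-likelihood F statistic) of the alpha-1 genes that passed the count filter, with 1 panel per comparison and "not tested" where a gene did not pass. Cacna1c lies below 0 in all 3 comparisons of nodose with jugular pools (-3.15, -12.7 and -7.3), Cacna1b lies above 0 by at most 2.08 in these panels, and no gene passed the adjusted threshold.

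The third comparison set Trpv1-tdTomato-positive against Trpv1-tdTomato-negative nodose neurons, and 5 members could be tested. Mean Cacna1b was 3.92 times higher in the Trpv1-tdTomato-positive pools (69.2 ± 26.9 against 17.7 ± 7.62 CPM), with a log2 fold change of 1.98 ± 0.948 (edgeR's quasi-likelihood test, adjusted p = 0.575). Mean Cacna1e was 58.3 times higher in the Trpv1-tdTomato-negative pools (5.99 ± 1.61 against 0.103 ± 0.138 CPM), with a log2 fold change of -5.85 ± 2.84 (edgeR, adjusted p = 0.588). The size of this ratio rests on 39 counts in the first Trpv1-tdTomato-positive pool, since the second had 1 count, and the log2 fold change was -10.06 without the first and -4.87 without the second. DESeq2 gave Cacna1e an adjusted p of 0.0296, which was not called because neither Trpv1-tdTomato-negative pool reached 10 CPM. Cacna1b and Cacna1e were the 2 members of 5 whose groups did not overlap, as was so for 40.7% of all genes tested. Neither was called, nor was any other member, at a background of 0.0527% in edgeR and 2.26% in DESeq2.

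The remaining members did not separate these groups. Cacna1c was 1.66 times higher on average in Trpv1-tdTomato-negative pools (log2 fold change -0.71 ± 2.13, adjusted p = 0.989), and its direction turned (0.18) without the second Trpv1-tdTomato-positive pool. Cacna1a (-2.39 ± 3, adjusted p = 0.918) became 4.7 without the second Trpv1-tdTomato-negative pool, and Cacna1h (-2.21 ± 3.19, adjusted p = 0.942) became 7.05 without the first. The differences of Cacna1a and Cacna1h thus each rest on 1 Trpv1-tdTomato-negative pool of 15 cells. In pools, fewer cells with a transcript and less of it per cell cannot be told apart.

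The auxiliary subunits, 16 genes that also had entries, were measured in the same fits. None was called by edgeR in any comparison, with 9 tested between Trpv1-tdTomato-positive nodose and jugular pools (median log2 fold change -0.38, against 0.03 over all genes tested), 4 in the capsaicin selection (1, against -0.02), 8 over both selections (-0.05, against -0.16) and 9 between Trpv1-tdTomato-positive and Trpv1-tdTomato-negative pools (0.35, against 0.01). Cacnb3, a cytoplasmic β subunit that raises the surface level of the pore, was the steadiest and was found in every pool. It was at 139 and 161 CPM in Trpv1-tdTomato-positive nodose pools, 165 and 225 in jugular ones, 123 and 99.4 in Trpv1-tdTomato-negative pools, 60.4 and 228 in nodose capsaicin pools and 46.4 and 106 in jugular capsaicin pools. The nodose capsaicin pool that had 15 counts over the alpha-1 genes thus still held this β subunit at 60.4 CPM.

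Cacnb4, another β subunit, ranged more widely. It was at 520 and 165 CPM in nodose capsaicin pools, 102 and 94.1 in jugular ones, 27.4 and 18.7 in Trpv1-tdTomato-positive nodose pools, 150 and 30.3 in the jugular ones, and 0.34 and 32.2 in Trpv1-tdTomato-negative pools. The 520 CPM belong to the same nodose capsaicin pool. The ganglion difference did not pass in either selection (log2 fold change -1.97 ± 1.05, adjusted p = 0.618 and 1.54 ± 0.911, adjusted p = 0.662, edgeR), and the interaction had an adjusted p of 0.478 in edgeR. Cacnb1, the β subunit first known from skeletal muscle, lay between 7.67 and 68.2 CPM in all pools, and Cacnb2 reached 12.6 CPM in 1 Trpv1-tdTomato-positive nodose pool and no more than 0.358 in the others.

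Among the α2δ subunits, Cacna2d1, the target of gabapentin, was found at 152 and 174 CPM in jugular capsaicin pools and 62.4 and 0.234 CPM in nodose ones. In the Trpv1 selection it was at 35.9 and 42.6 CPM in Trpv1-tdTomato-positive nodose pools, 33.7 and 58.8 in jugular ones and 94.6 and 41.4 in Trpv1-tdTomato-negative pools. The ganglion difference in the capsaicin selection was -2.57 ± 2.22 on the log2 scale (edgeR, adjusted p = 0.918). Cacna2d3, which has a role in pain and hearing, was at 7.01 to 63.2 CPM in the 6 pools of the Trpv1 selection and had no count in the 4 of the capsaicin selection. Cacna2d2 reached 22.2 CPM in the former and 0.0834 in the latter. Cacna2d4 had no count in any pool.

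Of the γ subunits, which mostly serve AMPA receptors in neurons, Cacng5 was at 13 and 30.5 CPM in Trpv1-tdTomato-negative nodose pools and at no more than 0.0727 CPM in the 8 other pools. Its log2 fold change of Trpv1-tdTomato-positive over Trpv1-tdTomato-negative pools was -9.84 ± 2.6 (edgeR's quasi-likelihood test, adjusted p = 0.366), and DESeq2 called it (-9.81, adjusted p = 1.63e-07). Cacng2, or stargazin, was at 7.55 and 15.4 CPM in the Trpv1-tdTomato-negative pools and at no more than 6.04 in the others (log2 fold change -6.51 ± 2.83, adjusted p = 0.508 in edgeR). Both genes were highest in the same group, in which Cacna1e was at 7.13 and 4.85 CPM. Cacng1, Cacng3, Cacng4, Cacng6 and Cacng8 had no count, and Cacng7 had at most 3.

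**Figure D4:**
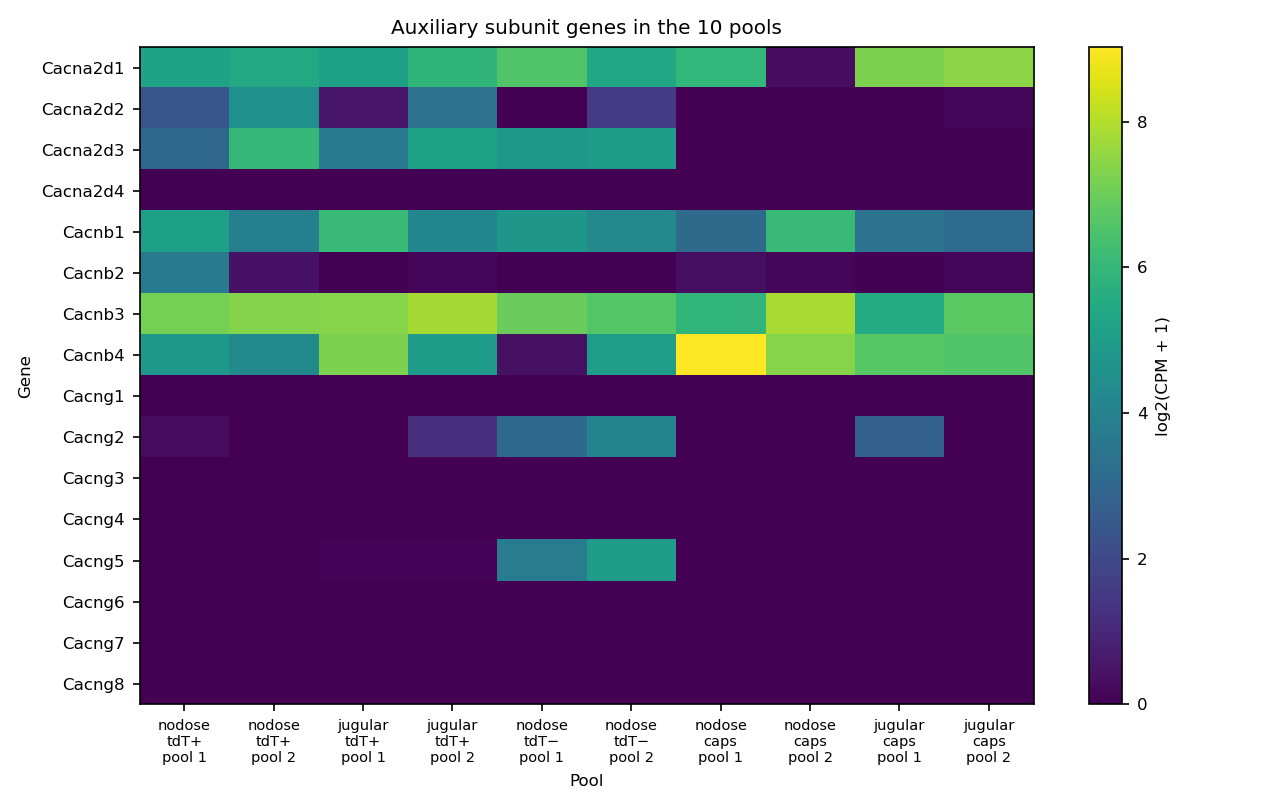
Heat map of log2(CPM + 1) of the 16 auxiliary subunit genes (lines) in the 10 pools (columns, 2 per group). Cacnb3 is found in every pool (46.4 to 228 CPM), Cacng5 is at 13 and 30.5 CPM in the 2 Trpv1-tdTomato-negative pools and at no more than 0.0727 CPM elsewhere, and Cacna2d3 has no count in the 4 capsaicin pools.

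The regulators comprised 17 genes, namely the RGK proteins, STAC adaptors, calcium sensors such as Calm2 and Cabp1, Cbarp, Dpysl2 and the related sodium leak channel Nalcn with its partners. None was called by edgeR in any comparison, with 10 tested between Trpv1-tdTomato-positive nodose and jugular pools (median log2 fold change 0.22), 9 in the capsaicin selection (0.11), 11 over both selections (0.68, where the median of all genes was -0.16) and 12 between Trpv1-tdTomato-positive and Trpv1-tdTomato-negative pools (0.09). Between the Trpv1-tdTomato-positive groups, 3 of the 10 had an unadjusted p under 0.05, among them Cabp1 and Calm2, as did 1305 of all 10990 genes tested. Cabp1, a neuronal calcium-binding protein that competes with calmodulin at the channel, was at 68.3 and 53.2 CPM in jugular and at 3.99 and 7.21 CPM in nodose pools (log2 fold change -3.44 ± 1.22, adjusted p = 0.367 in edgeR). Calm2, which encodes calmodulin, was at 1970 and 1900 CPM against 1200 and 1470 (log2 fold change -0.54 ± 0.155, adjusted p = 0.321 in edgeR). DESeq2 called Cabp1 of these (-3.40, adjusted p = 0.099). Of the capsaicin pools, 1 jugular pool had counts of Cabp1, at 8.92 CPM.

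Stac, an adaptor that holds L-type channels at the membrane and slows their inactivation, was at 20.8 to 131 CPM in the pools of Trpv1-tdTomato-positive neurons, 10.2 and 55.1 in Trpv1-tdTomato-negative pools and 136 and 130 in jugular capsaicin pools, but at 97.3 and 0.0585 in nodose capsaicin pools. It therefore did not follow Cacna1c, which was at 0 in both of the last pools. The Ras-like RGK proteins, which inhibit high-voltage-activated channels, were patchy. Gem lay between 11 and 25.2 CPM in 4 pools and at no more than 0.234 in the others, Rrad was at 18.5 CPM in 1 jugular and 13.6 CPM in 1 Trpv1-tdTomato-negative pool, and Rem1 had no count in any pool.

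Among genes with patterns like those of the members over the 10 pools, Cacna1b came closest to Trmt1 (Pearson's r = 0.946 of log2(CPM + 1), over 7503 genes compared), Npr2 (0.916) and Sh3kbp1 (0.910). Cacna1c came closest to Pla2g7 (0.952), Dnajc11 (0.947) and Baz2b (0.934), and Cacna1e to Camsap1 (0.911), F11r (0.899) and Atg4b (0.893). These values are the highest of all genes compared, over 10 points that fall into selections of unequal depth, and they are given as a description.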

How the data were processed

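Per the labels and the study's methods, cDNA of pooled neurons was made with the SMARTer Ultra Low Input kit, reads were aligned to mm10 with TopHat2 (2.0.9) and Bowtie2 (2.1.0.0), and the authors deposited raw HTSeq counts per gene symbol, which are not normalized. The annotation and the strand setting of HTSeq are not given in the sources used here. All 10 pools were used, with groups and pool numbers from the labels. CPM were computed as counts over DESeq2 size factors over all pools, scaled by the geometric mean total. The test was edgeR 4.0.16's quasi-likelihood test (R 4.3.3, TMM, filterByExpr, Benjamini-Hochberg adjustment over all genes tested), with DESeq2 1.42.0 as an alternative, and its SE is the log2 fold change over the square root of F. Depth ranged from 17666710 to 167704327 counts, so that a value is less certain in the capsaicin selection. Both tools were also run on simulated counts for the comparisons of single pairs of groups, with a spread common to all genes. The fits over both selections were not simulated, and no outcome is given here. The members, the 2 gene lists and the tests were chosen with earlier results of these data known. All members are named, as are list genes that reach 10 CPM in both pools of a group or were called by either tool; Cacnb2, Cacna2d2, Cacng2, Cacng7, Gem, Rrad, Rem1, Nalcn and the list genes without counts were named after their values were seen. Pools with the same number did not deviate together (correlations 0.00221, -0.0137 and -0.0126 over genes), and the main fits do not pair them. This check cannot exclude that pools with the same number came from the same mouse, since other spread between pools can hide it. No 2 files of a group held identical values. The values of some list and marker genes are not reported here.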

Additional observations from a re-analysis of the deposited data

How the results depend on the processing

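No alternative made edgeR call a member. DESeq2 called 1 member, Cacna1c, in the capsaicin selection, over both selections and in the interaction, 1 regulator, Cabp1, between the Trpv1-tdTomato-positive ganglia, over both selections and in the interaction, and 1 auxiliary subunit, Cacng5, against the Trpv1-tdTomato-negative pools. Genes called between the Trpv1-tdTomato-positive ganglia numbered 35, 59 without a filter on low counts, 459 with DESeq2, 13 with the replicate block and 0 whichever pool was left out. In the capsaicin selection they numbered 0, 122 without the filter, 734 with DESeq2, 110 with all 10 pools in 1 fit, 20 with the block and 0 to 29 when a pool was left out (29 without nodose pool 1, 0 without nodose pool 2, 26 without jugular pool 1 and 18 without jugular pool 2). For Trpv1-tdTomato-positive over Trpv1-tdTomato-negative pools they numbered 6, 10 without the filter, 320 with DESeq2, 1 with the block and 0 whichever pool was left out. Over both selections they numbered 88, 222 without the filter, 1154 with DESeq2, 213 with all 10 pools, 41 with the block and 36 to 82 when a pool was left out (36 without jugular capsaicin pool 2). In the interaction they numbered 0 and 1091 with DESeq2. The causes were not tested, but a pool left out also leaves fewer pools.

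Of the members' log2 fold changes, 176 kept their direction and side of the threshold, 9 changed direction and 3 became called, those of Cacna1c with DESeq2. Since no member was called in the main fits, keeping the side of the threshold means only that none became called. Between the Trpv1-tdTomato-positive ganglia, leaving out a pool gave -6.17 to -2.08 for Cacna1a, 1.37 to 3.44 for Cacna1b and -5.63 to -2.29 for Cacna1c. In the capsaicin selection it gave -6.26 to 2.02 for Cacna1a and -12.54 to 13.51 for Cacna1b. Against Trpv1-tdTomato-negative pools it gave -5.54 to 4.7 for Cacna1a, -3.16 to 0.18 for Cacna1c, -10.06 to -4.87 for Cacna1e and -5.96 to 7.05 for Cacna1h. With the replicate block, Cacna1a in the capsaicin selection became -1.21 and Cacna1h against Trpv1-tdTomato-negative pools 0.34; the block changed no call of a member. Where 1 pool is left in a group, it is assumed to vary like the other group. DESeq2 size factors in place of TMM moved the median of all genes from -0.16 to -0.03 over both selections, from -0.02 to 0.09 in the capsaicin selection and from -0.44 to -0.09 in the interaction, and turned no member's direction. With plain totals or the longest transcript, 7 of 20 mean levels per kb moved by more than 1 SD, at most to 2.49 CPM per kb (Cacna1c in jugular capsaicin pools). The mean over the groups without the second nodose capsaicin pool, and the plain totals in single pools, were chosen after seeing the data. Depth limits the capsaicin selection most, where 3 counts are worth up to 0.176 CPM.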

Other observations

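Dpysl2 encodes CRMP2, a cytosolic protein that binds the N-type pore and raises its level at the membrane. It was at 10600 and 56400 CPM in nodose capsaicin pools and 15900 and 11400 CPM in jugular ones, against 169 to 315 CPM in all 6 pools of the Trpv1 selection. The pool at 56400 CPM was the one with Cacna1b at 161 CPM and Cacna1e at 143 CPM. With plain totals that pool still had the highest Cacna1e (79.4 CPM) but not the highest Cacna1b (89.5, against 111 CPM in a Trpv1-tdTomato-positive nodose pool). Dpysl2 did not follow Cacna1b over the other pools. It was at 10600 and 15900 CPM in the capsaicin pools without a Cacna1b count, and at 11400 CPM in the jugular one with Cacna1b at 56.5 CPM. In Trpv1-tdTomato-positive nodose pools, with Cacna1b at 88.2 and 50.2 CPM, it was at 211 and 315 CPM. Between the ganglia Dpysl2 was not called in either selection (log2 fold change of nodose over jugular 0.43 ± 0.365, adjusted p = 0.817, and 0.83 ± 0.723, adjusted p = 0.921, edgeR's quasi-likelihood test). The difference between the selections was not tested, since selection, strain, sequencing core and depth cannot be told apart. Cbarp, which restrains the surface level of these channels through their β subunits, lay between 9.3 and 46.9 CPM in all pools.

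The sodium leak channel Nalcn, a relative of the alpha-1 subunits that is not gated by voltage in the same way, was at 195 CPM in the same nodose capsaicin pool and at no more than 11.9 CPM in the 9 others. Its partner Fam155a was also highest there, at 219 CPM, against no more than 33.5 CPM elsewhere. Unc80, the scaffold of the complex, was at 96.1 and 82.6 CPM in Trpv1-tdTomato-negative pools, 36 and 54.7 in Trpv1-tdTomato-positive nodose pools, 22.9 and 0.25 in jugular ones, 0 and 79.6 in nodose capsaicin pools and 0.0392 and 8.05 in jugular ones. None of the 3 was called in any comparison by edgeR.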
